A study of Mus musculus with 6 samples.

Results

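The genes described here are the Wnt ligands, their Frizzled receptors, their co-receptors and their secreted inhibitors in the esophageal epithelium of mice in which the transcription factor gene *Klf4* was targeted. They were chosen by symbol: Wnt or Fzd followed by a digit, *Sfrp1* to *Sfrp5*, *Dkk1* to *Dkk4*, *Dkkl1*, *Wif1*, *Lrp5*, *Lrp6*, *Ror1*, *Ror2* and *Ryk*. This gave 45 of the 19938 genes measured: 19 Wnt ligands, 10 Frizzled receptors, 5 co-receptors, 10 secreted inhibitors or relatives of them, and *Fzd10os*, which by its symbol is a transcript opposite *Fzd10* and no receptor. All but 1 had a single probe set, and *Wnt4* had 2.

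Total RNA from 6 mice aged 3 months was hybridised to microarrays, 1 array per animal. In the 3 mutant mice (ED-L2-Cre; Klf4 loxp/loxp), Cre recombinase acts on *Klf4* alleles flanked by loxP sites, and the ED-L2 promoter that drives it is active in squamous epithelia such as that of the esophagus. The 3 controls were littermates of the same sex with the same Klf4 loxp/loxp alleles and no Cre, so no group here carried Cre alone or unfloxed alleles. Replicate 1 of either genotype was a male and the other 2 animals were females, all of mixed genetic background. Values are the log2 signals the authors deposited, and a difference is the mean of the arrays labelled mutant minus the mean of the arrays labelled control.

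*Klf4* itself read 10.28, 10.50 and 10.28 on the arrays labelled mutant, against 9.75, 10.15 and 10.06 on those labelled control. Each mutant array thus gave a higher *Klf4* signal than each control array, a pattern that 10.1% of all genes showed, and the difference did not pass. Whether its probes lie inside the deleted part is not known here. All directions therefore rest on the labels. Sex-linked genes matched the labelled sexes, and correlations between arrays over all genes lay between 0.974 and 0.992. Precision is limited by the 3 arrays in each group. Markers of the labelled tissue were present: all 13 basal keratinocyte genes and 12 of 15 suprabasal genes measured were above the detection limit on every control array. So were all 21 fibroblast, 12 smooth muscle and 12 skeletal muscle genes, which mark cells other than the epithelium.

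Wnt proteins are secreted, lipid-modified signals that act over short distances. They bind Frizzled receptors together with the co-receptors Lrp5 and Lrp6, which stabilises beta-catenin and switches on genes through Tcf and Lef factors. A second branch, for which Wnt5a is best known, runs through Ror1, Ror2 or Ryk without beta-catenin and governs cell polarity and movement. Sfrp proteins and Wif1 bind the ligands outside the cell, and Dickkopf proteins block Lrp5 and Lrp6. In stratified epithelia the beta-catenin branch is tied to the growth of the basal layer.

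The first question was which of these genes gave a signal in control esophagus. A gene was called detected when it lay above the 95th percentile of the 1027 olfactory receptor genes, which serve as probe sets with no expected target, on all 3 control arrays. That limit was between 3.99 and 4.27 on the 6 arrays. By this rule 37 of the 45 genes (82.2%) were detected, against 66.9% of all genes. All 10 Frizzled genes and all 5 co-receptors were detected, as were *Fzd10os*, 14 of 19 ligands and 7 of 10 inhibitors. The 8 genes not detected were *Wnt1*, *Wnt2*, *Wnt3*, *Wnt7a*, *Wnt8b*, *Dkk1*, *Dkk4* and *Wif1*. Of these, *Wnt2* and *Wnt3* lay above the limit on 2 of the 3 control arrays and on all 3 arrays labelled mutant. *Dkk4* lay above it on 2 arrays of each group, and *Wnt7a* on 1 control array and 2 arrays labelled mutant. *Wnt1*, *Wnt8b*, *Dkk1* and *Wif1* were above it on no array. Signals of different probe sets cannot be ranked against each other, so no order of abundance is given.

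**Figure D1:**
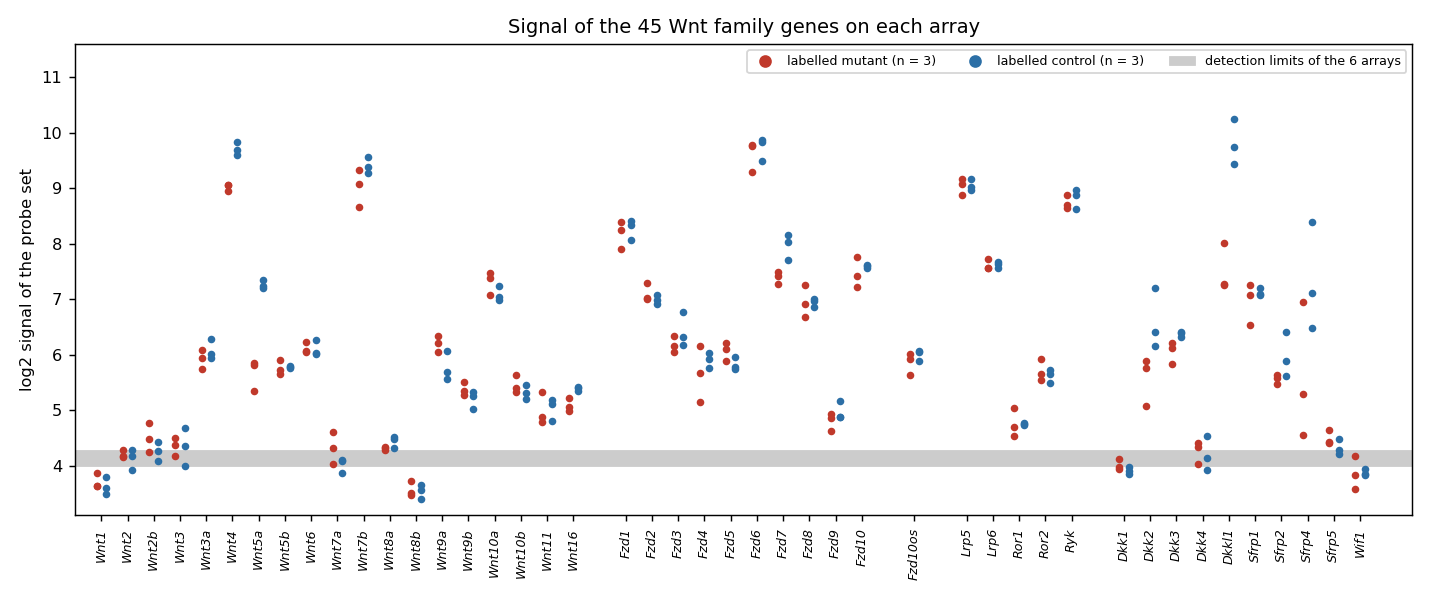
Log2 signal (vertical axis) of the 45 genes (horizontal axis, by role) on each array, with arrays labelled mutant left of arrays labelled control and the range of the 6 detection limits, 3.99 to 4.27, as a grey band. The Frizzled and co-receptor points lie above the band, while those of *Wnt1* and *Wnt8b* lie below it, and levels of different genes are not comparable.

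Mutant arrays were then compared with control arrays in one limma fit over all 19938 genes, with Benjamini-Hochberg adjustment over all of them. *Dkkl1*, *Wnt5a* and *Wnt4* fell on the arrays labelled mutant, to levels 4.89-fold, 3.00-fold and 1.61-fold below those of the arrays labelled control. No gene of the 45 rose past the threshold of an adjusted p of 0.05. The 3 that fell are 6.67% of the 45, against 0.672% of all genes that fell, and the 0 that rose stand against 0.366% of all genes. An unadjusted p under 0.05 was reached by 9 of the 45 (20%), against 12.4% of all genes. The median difference over the 45 was -0.015, and 0.022 over all genes. In tissue RNA, fewer cells of a type and less RNA per cell cannot be told apart.

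**Figure D2:**
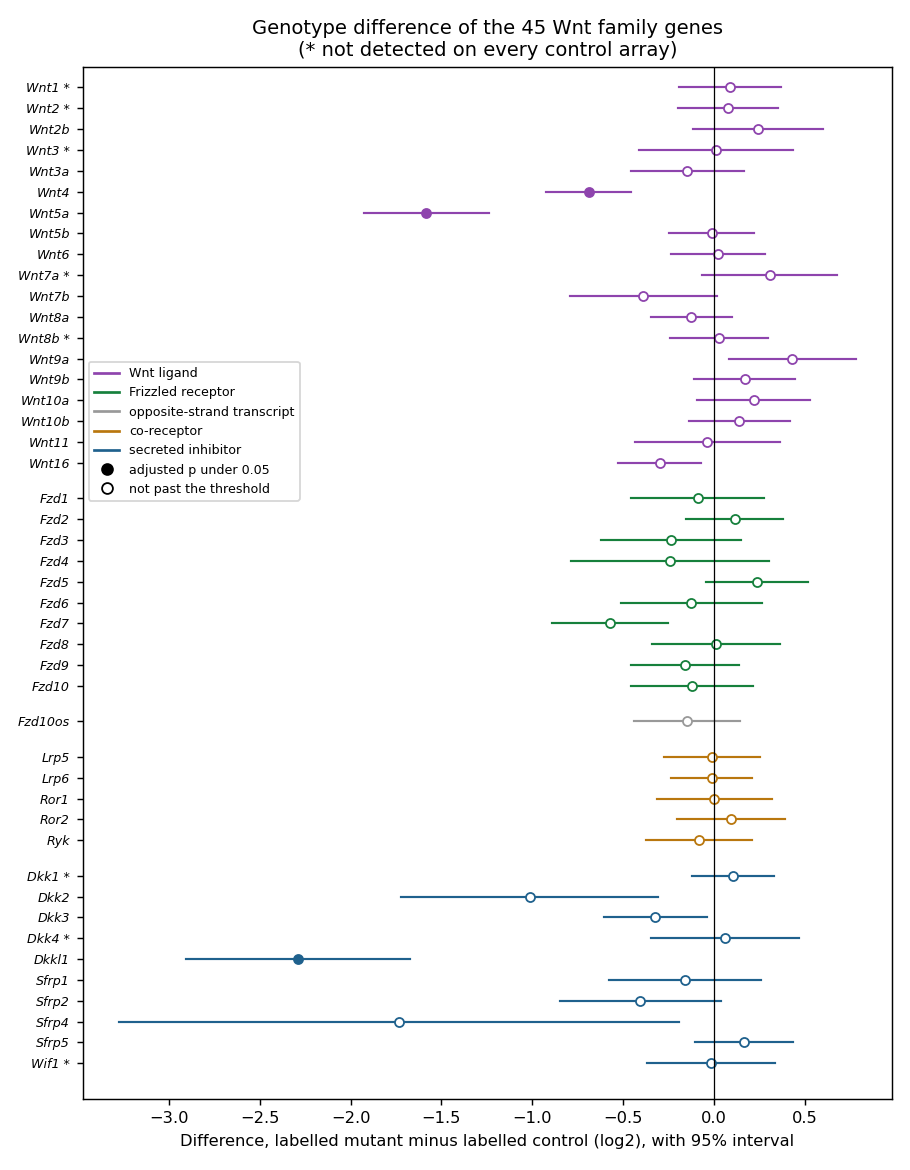
Difference of each of the 45 genes, labelled mutant minus labelled control, on the log2 scale (horizontal axis), with its 95% interval from limma as a line, coloured by role. Filled points mark the 3 genes past the threshold, *Wnt5a* (-1.58), *Wnt4* (-0.69) and *Dkkl1* (-2.29), and asterisks mark genes not detected on every control array.

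Among the ligands, *Wnt5a* (probe set 10413482), the main ligand of the branch without beta-catenin, read 5.35, 5.86 and 5.81 on the arrays labelled mutant, against 7.23, 7.20 and 7.34 on the arrays labelled control. The groups did not overlap, and the male array labelled mutant was the lowest of the 6. The difference was -1.58 ± 0.15 (SE; limma adjusted p = 0.00717), and in the 4 females alone it was -1.43 (limma adjusted p = 0.0221). The SD was 0.28 among the arrays labelled mutant and 0.07 among those labelled control (n = 3 each).

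*Wnt4*, a ligand known from the development of the mouse kidney and female reproductive tract, read 8.94, 9.05 and 9.06 on the arrays labelled mutant, against 9.83, 9.60 and 9.69 on those labelled control. The groups did not overlap, and the difference was -0.69 ± 0.10 (SE; limma adjusted p = 0.0271). A further probe set of *Wnt4* (10509267) gave 8.55, 8.56 and 8.76 for the arrays labelled mutant, against 9.25, 8.85 and 8.98 for those labelled control. That probe set gave -0.41 ± 0.13 and did not pass (limma adjusted p = 0.247 over probe sets). The call for *Wnt4* was lost in 12 of 17 alternatives, among them leaving out any 1 array, with limma adjusted p between 0.0517 and 0.132 for those.

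**Figure D3:**
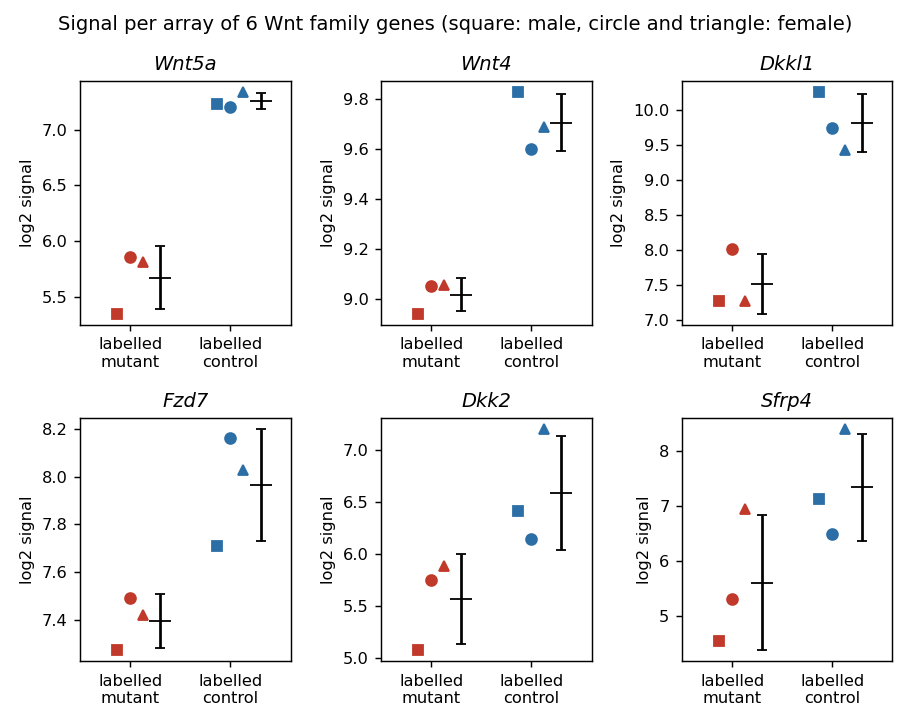
Log2 signal of 6 genes on each array (vertical axes, a scale of its own for each gene and not starting at 0), with arrays labelled mutant left of arrays labelled control. Squares are the males, circles and triangles the females, and the black marks give mean and SD (n = 3). The groups are apart for *Wnt5a*, *Wnt4*, *Dkkl1*, *Fzd7* and *Dkk2* and overlap for *Sfrp4*.

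The other 17 ligands did not pass, with adjusted p between 0.256 and 0.989. *Wnt16*, known in mice for its part in cortical bone, read 5.05, 5.21 and 4.98 on the arrays labelled mutant, against 5.41, 5.39 and 5.34 on those labelled control. Its groups did not overlap, and the difference was -0.30 ± 0.10 (SE; limma adjusted p = 0.256). *Wnt9a*, a ligand active in joint formation, gave the largest positive difference of the 45 genes. It read 6.05, 6.21 and 6.34 on the arrays labelled mutant, against 5.69, 6.06 and 5.56 on those labelled control, with 1 control array just above the lowest mutant one. Its difference was 0.43 ± 0.15 (SE; limma adjusted p = 0.286).

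*Wnt7b* and *Wnt10a* are ligands of the beta-catenin branch that surface epithelia make. *Wnt7b* read 8.66, 9.08 and 9.32 on the arrays labelled mutant, against 9.56, 9.28 and 9.39 on those labelled control, so that the groups overlapped. *Wnt10a*, whose loss affects teeth, hair and other ectodermal organs, read 7.37, 7.07 and 7.47 on the arrays labelled mutant, against 7.24, 7.04 and 6.99 on the others. Their differences of -0.39 ± 0.17 and 0.22 ± 0.13 (SE) did not pass (limma adjusted p = 0.427 and 0.594).

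*Wnt5b*, the closest relative of *Wnt5a*, read 5.73, 5.66 and 5.91 on the arrays labelled mutant, against 5.78, 5.75 and 5.80 on those labelled control. Its difference was -0.01, with a 95% interval from -0.25 to 0.22 that excludes a fall of the size seen for *Wnt5a*. The remaining detected ligands, *Wnt2b*, *Wnt3a*, *Wnt6*, *Wnt8a*, *Wnt9b*, *Wnt10b* and *Wnt11*, had differences of 0.24, -0.15, 0.02, -0.13, 0.17, 0.14 and -0.04. All of these overlapped between the groups. *Wnt2b* was detected by a narrow margin, with 4.09 on control 1 against a limit of 4.08.

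The mouse Wnt genes include pairs that lie next to each other on a chromosome, and 4 such pairs were found in the gene order of assembly GRCm38.p6. *Wnt6* and its neighbour *Wnt10a* on chromosome 1 differed by 0.02 and 0.22. *Wnt3a* and *Wnt9a* on chromosome 11 differed by -0.15 and 0.43, and *Wnt9b* and *Wnt3* on the same chromosome by 0.17 and 0.01. *Wnt10b* and *Wnt1* on chromosome 15 differed by 0.14 and 0.09. No gene of these pairs passed. The neighbours of the 3 genes that fell did not pass either: *Erc2* and *Cacna2d3* beside *Wnt5a* differed by 0.04 and -0.16, *Zbtb40* and *Cdc42* beside *Wnt4* by 0.37 and 0.03, and *Kash5* and *Tead2* beside *Dkkl1* by -0.04 and -0.08.

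None of the 10 Frizzled receptor genes passed, with adjusted p between 0.124 and 0.984. The nearest was *Fzd7*, a receptor known from mouse intestinal stem cells, which read 7.27, 7.49 and 7.42 on the arrays labelled mutant, against 7.71, 8.16 and 8.03 on those labelled control. It was the 1 Frizzled gene of 10 whose groups did not overlap, with all arrays labelled mutant lower. Over all genes, 8.00% had them all lower and 10.1% all higher, so this count is not read as a result about the receptors. The difference of *Fzd7* was -0.57 ± 0.14 (SE; limma adjusted p = 0.124). *Fzd6*, a receptor that orients hairs in mouse skin, read 9.29, 9.76 and 9.77 on the arrays labelled mutant, against 9.84, 9.49 and 9.87 on those labelled control. Its difference was -0.12, with a 95% interval from -0.51 to 0.27.

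*Fzd4*, which in the retina is the receptor of the secreted protein Norrin, spread most within the group labelled mutant of the Frizzled genes. It read 6.16, 5.67 and 5.15 there, against 5.76, 6.03 and 5.92 on the arrays labelled control. *Fzd5*, a receptor needed for Paneth cells of the mouse gut, gave the highest difference of the family, 0.24 ± 0.12 (SE; limma adjusted p = 0.495). The differences of *Fzd1*, *Fzd2*, *Fzd3*, *Fzd8*, *Fzd9* and *Fzd10* were -0.09, 0.11, -0.24, 0.01, -0.16 and -0.12. *Fzd10os* differed by -0.15.

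Each co-receptor differed little between the groups, with differences between -0.08 and 0.09. *Lrp5*, a co-receptor known for its part in bone mass, read 8.87, 9.07 and 9.17 on the arrays labelled mutant, against 8.97, 9.16 and 9.02 on those labelled control. *Lrp6*, its partner in beta-catenin signalling, read 7.57, 7.56 and 7.72 on the arrays labelled mutant, against 7.68, 7.64 and 7.57 on the others. The 95% intervals of their differences ran from -0.28 to 0.25 and from -0.23 to 0.21.

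The other co-receptors, *Ror1*, *Ror2* and *Ryk*, did not pass either. *Ror2*, a receptor tyrosine kinase that binds Wnt5a, read 5.55, 5.64 and 5.92 on the arrays labelled mutant, against 5.64, 5.72 and 5.48 on those labelled control, and the groups overlapped. *Ror1*, its relative, differed by 0.0018, with a 95% interval from -0.32 to 0.32. *Ryk*, an atypical kinase with a Wnt-binding outer part, differed by -0.08 ± 0.12 (SE; limma adjusted p = 0.854).

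Among the secreted inhibitors and their relatives, *Dkkl1* (probe set 10563170) changed most of the 45 genes. It encodes a relative of the Dickkopf proteins that in mice is best known from the acrosome of sperm, and it is named for its similarity to them. It read 7.26, 8.01 and 7.27 on the arrays labelled mutant, against 10.25, 9.73 and 9.43 on those labelled control. The groups did not overlap, with more than 1 log2 unit between the highest mutant and the lowest control array. The means were 7.51 ± 0.43 on the arrays labelled mutant and 9.80 ± 0.41 on those labelled control (SD, n = 3 each). The difference was -2.29 ± 0.26 (SE; limma adjusted p = 0.0147). The call was lost without mutant 3 (-2.17, limma adjusted p = 0.0531) and in the 4 females alone (-1.94, limma adjusted p = 0.0560).

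The promoters of *Dkkl1* and *Wnt4* are shown because both genes fell and *Klf4* encodes a factor that binds GC-rich sites of the CACCC type. The promoter set held no entry for *Wnt5a*, so its promoter was not examined. They run from 250 bases before to 50 bases after a transcription start, are taken from RefSeq on assembly GRCm38.p6 and are written 5′ to 3′ on the strand given. Capitals mark every CACCC, found as its complement GGGTG on the other strand, and every GGGNGTGG, found as its complement CCACNCCC on the other strand. These 2 motifs were searched on both strands and can overlap.
Dkkl1, chr7:45211834-45212133, minus strand: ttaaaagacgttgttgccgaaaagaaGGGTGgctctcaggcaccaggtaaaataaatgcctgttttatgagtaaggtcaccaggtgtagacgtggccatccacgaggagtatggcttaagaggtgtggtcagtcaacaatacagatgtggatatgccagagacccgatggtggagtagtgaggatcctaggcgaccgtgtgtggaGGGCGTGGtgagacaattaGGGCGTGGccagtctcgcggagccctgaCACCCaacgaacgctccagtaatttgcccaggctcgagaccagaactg
Wnt4, chr4:137277385-137277684, plus strand: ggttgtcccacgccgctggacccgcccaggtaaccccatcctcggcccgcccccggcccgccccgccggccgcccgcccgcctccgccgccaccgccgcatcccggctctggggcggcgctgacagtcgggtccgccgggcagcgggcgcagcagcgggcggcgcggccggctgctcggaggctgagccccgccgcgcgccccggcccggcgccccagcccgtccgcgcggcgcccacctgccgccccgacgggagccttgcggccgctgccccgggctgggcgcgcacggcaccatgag
The *Dkkl1* window held 2 matches of CACCC and 2 of GGGNGTGG, and the *Wnt4* window held 0 of each. Of 32851 promoter windows of this length in the same set, 57.5% held CACCC and 17.6% held GGGNGTGG. The *Wnt4* window is 84.3% G and C, against 53% for *Dkkl1* and a median of 52.7% over all windows. The motif CTTTGA, searched also as its complement TCAAAG, part of the site of Tcf and Lef factors, had 0 matches in both windows and was present in 16.0% of all. A match is a letter pattern and not a measured binding site.

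None of the other 9 inhibitors and relatives passed, with adjusted p between 0.210 and 0.981, and the 2 that differed most also spread most between animals. *Sfrp4*, which binds Wnt ligands outside the cell, read 4.55, 5.30 and 6.95 on the arrays labelled mutant, against 7.12, 6.48 and 8.39 on those labelled control. The groups overlapped, with replicate 3 the highest array in each, and the difference was -1.73 ± 0.66 (SE; limma adjusted p = 0.337). *Dkk2*, a ligand of Lrp5 and Lrp6, read 5.08, 5.75 and 5.88 on the arrays labelled mutant, against 6.41, 6.15 and 7.20 on those labelled control. Its groups did not overlap, and the difference was -1.01 ± 0.30 (SE; limma adjusted p = 0.210).

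*Dkk3*, a divergent Dickkopf protein, read 5.83, 6.12 and 6.22 on the arrays labelled mutant, against 6.40, 6.32 and 6.42 on those labelled control. Its groups were apart by a small margin, and its difference of -0.32 ± 0.12 (SE) did not pass (limma adjusted p = 0.326). *Sfrp2* read 5.47, 5.64 and 5.58 on the arrays labelled mutant, against 6.40, 5.88 and 5.62 on those labelled control. The Wnt-binding proteins *Sfrp1* and *Sfrp5* differed by -0.16 and 0.16, and *Sfrp2* by -0.41.

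Across the 45 genes, 7 had all arrays labelled mutant below all arrays labelled control (15.6%, against 8.00% of all genes), and 0 had them all above (against 10.1% of all genes). The 7 were *Wnt4*, *Wnt5a*, *Wnt16*, *Fzd7*, *Dkk2*, *Dkk3* and *Dkkl1*. Of the 42 genes that did not pass, 40 had a 95% interval that stayed within 1 log2 unit of 0. Each interval was taken by itself, with no adjustment for their number. For the detected genes among the 40, the intervals exclude changes of 2-fold or more, as far as the signal follows the RNA. The 8 genes not detected in controls are also among the 40, and a fall of these could not be seen. The 2 genes outside the 40 were *Dkk2* and *Sfrp4*, whose intervals ran from -1.72 to -0.31 and from -3.27 to -0.19.

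Markers of some other cell types also differed between the groups, while those of others did not. Each of the 21 markers of fibroblasts and the lamina propria had a lower mean in mutants, against 8866 of all 19938 genes. Of the 21, *Col1a2*, *Sparc* and *Thy1* passed the test, against 0.672% of all genes that passed and fell. The mean log2 signal of the 21 lay between 7.04 and 7.21 on the arrays labelled mutant, against 7.64 to 8.31 on those labelled control. Of 12 smooth muscle genes 11 were lower and none passed, with mean signals from 6.68 to 7.26 on the arrays labelled mutant, against 7.46 to 7.96 on those labelled control. All 12 skeletal muscle genes had a lower mean in mutants, but none passed. Their mean signal ranged from 5.99 to 8.50 on the arrays labelled mutant and from 5.82 to 9.85 on those labelled control, so those groups overlapped. The endothelial list had 7 of 12 genes higher and 5 lower, with a median of 0.020, and none passed. The macrophage and Langerhans cell list had 6 of 12 genes higher and 6 lower, with 1 passing each way. No gene of the lymphocyte, nerve, adipocyte and columnar epithelium lists passed. Of 13 basal keratinocyte genes 11 were lower and none passed, while 7 had an unadjusted limma p under 0.05, against 12.4% of all genes. Their mean signals were 8.92 to 9.20 on the arrays labelled mutant, against 9.21 to 9.31 on those labelled control. Of 15 suprabasal genes 8 were higher and 7 lower, and the 1 that passed, the cornified envelope gene *Evpl*, fell (-1.03 ± 0.16, SE; limma adjusted p = 0.0370). Their mean was 10.98 to 11.04 on the arrays labelled mutant, against 10.80 to 10.94 on those labelled control, but this rested on *Krt6a*, which differed by 3.30 and did not pass. Without it, a choice made after seeing the data, the mean of the other 14 was 11.09 to 11.26 on the arrays labelled mutant, against 11.25 to 11.30 on those labelled control. None of the fibroblast, muscle and basal keratinocyte lists had a member below the detection limit on a control array. The part of all these markers in the differences of *Wnt5a*, *Wnt4*, *Dkkl1*, *Fzd7*, *Dkk2*, *Dkk3* and *Sfrp4* was not tested.

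**Figure D4:**
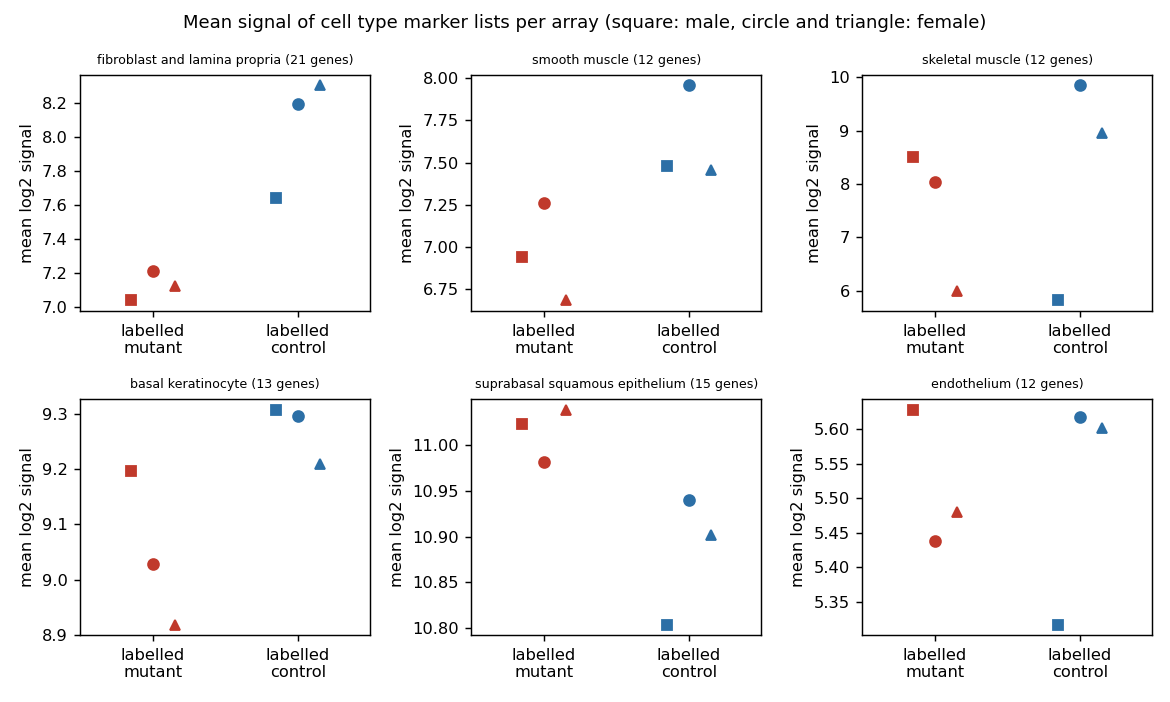
Mean log2 signal of 6 marker lists on each array (vertical axes, a scale of its own for each list and not starting at 0), with arrays labelled mutant left of arrays labelled control, squares for males and circles and triangles for females. Fibroblast, smooth muscle and basal keratinocyte means are lower on every array labelled mutant, suprabasal means are higher only with *Krt6a* counted, and the skeletal muscle and endothelial means overlap.

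The rest of the pathway was followed in 7 lists that together held 124 measured genes outside the 45. None of the 124 passed in limma, where 23 had an unadjusted p under 0.05 (18.5%, against 12.4% of all genes). Of the 124, 50 were higher (40.3%, against 55.5% of all genes) and 74 lower, with a median of -0.049, against 0.022 over all genes. The list of transducers and the beta-catenin destruction complex centred on 0.00061 (median of 23 genes), and that of nuclear effectors on -0.069 (17 genes). The R-spondin, Lgr and ubiquitin ligase list, which sets the number of Frizzled receptors at the surface, had a median of -0.054 over 9 genes. It had no gene with separate groups, while the secretion and release list had 4 of 9 genes with all arrays labelled mutant lower. Of the 124 genes, 20 had them all lower and 10 all higher, against 8.00% and 10.1% of all genes.

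The largest single difference of the wider pathway was that of *Porcn*, the enzyme that attaches the lipid Wnt proteins need for release. It read 6.48, 7.50 and 7.74 on the arrays labelled mutant, against 8.85, 8.51 and 9.07 on those labelled control. The groups were apart, but the arrays labelled mutant spread by more than 1 log2 unit, and the difference of -1.57 ± 0.32 (SE) did not pass (limma adjusted p = 0.0822). With array weights it passed. The glypican gene *Gpc4*, of the same list, differed by -0.77, and the 9 genes of Wnt secretion and release had a median of -0.25.

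*Celsr2*, a cadherin of planar cell polarity, read 8.52, 8.50 and 8.44 on the arrays labelled mutant, against 9.06, 9.04 and 8.89 on those labelled control. The spread within groups was small, and the difference was -0.51 ± 0.09 (SE; limma adjusted p = 0.0619). The kinase gene *Camk2d*, on the same list of planar polarity and the Wnt5a branch, differed by 0.48 (limma adjusted p = 0.162). That list had 6 of 24 genes higher and a median of -0.10.

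*Ctnnbip1*, whose product keeps beta-catenin from binding Tcf factors, differed by -0.56, and *Amer1*, a membrane scaffold of the destruction complex, by -0.40. *Lrp4*, a receptor that binds extracellular Wnt inhibitors, differed by -0.56 and the membrane inhibitor gene *Apcdd1* by -0.32. The corepressor gene *Tle4* and the cofactor gene *Pygo2* differed by 0.39 and 0.25, and *Rspo2* and the receptor gene *Lgr4* by 0.12 and -0.14. Their adjusted p in limma lay between 0.100 for *Lrp4* and 0.769 for *Lgr4*.

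Genes commonly used as targets of beta-catenin did not move together. In this list of 29 genes, 15 differences were positive, 14 were negative, none passed, and the median was 0.0017. *Sox4* and *Bmp4*, which had the smallest p of the list, differed by -0.60 and -0.50. The feedback gene *Axin2*, named here after its values were seen, read 5.26, 4.98 and 5.19 on the arrays labelled mutant, against 5.13, 5.32 and 5.24 on those labelled control. The beta-catenin gene *Ctnnb1*, named likewise, differed by 0.09 ± 0.11 (SE; limma adjusted p = 0.802).

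**Figure D5:**
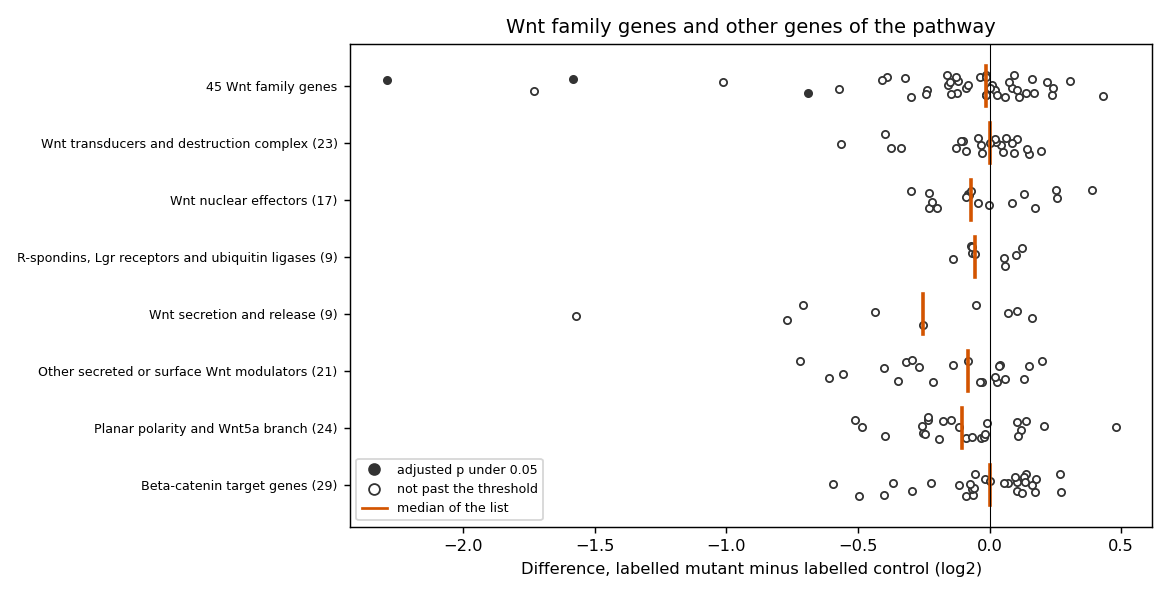
Difference of each gene, labelled mutant minus labelled control, on the log2 scale (horizontal axis) for the 45 Wnt family genes and the 7 lists of the wider pathway, with the number of genes measured in each. Filled points passed the threshold, orange bars are list medians, and no gene of the 7 lists is filled; the far left point of the secretion list is *Porcn* (-1.57).

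Whether the genotype difference itself differed between the sexes was tested as an interaction in limma over all genes. None of the 45 genes passed, against 0.0451% of all genes, and 4 of the 45 had an unadjusted p under 0.05 (8.89%, against 5.82% of all genes). These were *Fzd4*, *Wnt3a*, *Wnt7b* and *Sfrp2*. *Wnt7b* differed by -0.90 between the males and by -0.13 between the females, and *Sfrp2* by -0.93 and -0.14 (limma adjusted p of the interaction = 0.756 and 0.743). Each genotype held 1 male, so the male difference has no replicate.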

How the data were processed

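The deposited table holds log2 values of 28853 probe sets on 6 arrays. Per the labels' protocols, amplification started at the poly(A) tail and the label was biotin; Partek 6.4 is named in the submitters' processing notes. The sources used here do not give the background correction or normalization, and the log2 scale was inferred from the values. Read depth does not apply to arrays.

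Probe sets naming 1 gene (21789) were used, with symbols updated through Entrez identifiers to assembly GRCm38.p6, and a gene with several probe sets was represented by the one of highest average signal. limma 3.58.1 in R 4.3.3 (lmFit, eBayes, genotype only, two-sided, 7.58 degrees of freedom after moderation) was fitted on 19938 genes with no filter. Which animals were littermates of each other is not given by array. The p-values set the group difference against the spread within the groups of these 6 samples, moderated over all genes. An exact permutation of 3 against 3 arrays cannot go below 0.1 and was not used. Fits were tested on simulated data.

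The members, gene lists and tests were chosen with earlier results of these data known. The text names members that passed, were detected in controls or were extreme in their role, and the 2 genes with the smallest p of each wider list. Of 285 list entries 272 were matched. Alternatives covered normalization, dim genes, probe set choice, replicate block, sex, variance model, array weights and left-out arrays. Python 3.11.15 and matplotlib 3.10.9 drew the plots.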

Additional observations from a re-analysis of the deposited data

Results flagged for a closer look

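Of the 45 genes, 2 had differences of opposite sign in the sexes, with the male pair on one side and both females labelled mutant on the other side of both control females. The share of all genes with this pattern was not counted, so the 2 are not read as a result about the Wnt family. *Fzd4* had a difference of 0.40 in the male pair and of -0.56 in the females. The interaction (male minus female) was 0.96 ± 0.34 (SE; limma unadjusted p = 0.0298, adjusted p = 0.785). *Wnt1*, not detected on any array, had a difference of -0.16 in the male pair and 0.21 in the females, with an interaction of -0.38 ± 0.25 (SE; limma adjusted p = 0.9998). Neither difference between the sexes passed, and both rest on 1 male per genotype.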

How the results depend on the processing

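Under 17 alternatives the number of the 45 genes past the threshold was 3 in the fit as reported and stayed at 2 or 3 except in those named here. It was 0 without moderation of the variances (5 with an unadjusted p under 0.05) and 1 in the 4 females alone. Leaving out 1 array gave between 1 and 2, and it was 1, *Wnt5a*, without mutant 3. *Wnt5a* passed in all but the fit without moderation (adjusted p = 0.175), with differences from -1.67 to -1.42. *Dkkl1* did not pass in 3 alternatives and *Wnt4* in 12, and both were lower in all 17. The wider pathway had 1 gene past the threshold with array weights, *Porcn*, and 0 in every other alternative. Of the other 42 genes, 0 passed under any alternative that kept them, and 20 changed sign in at least 1, among them *Lrp6*, *Wnt5b* and *Wif1* in 5 each. The suprabasal marker mean differed by 0.13, and by -0.094 without *Krt6a*. Genes detected in controls numbered 30 to 40 by other limits and rules. The count over all 19938 genes was 207, against 81 with the replicate block, 370 with array weights, 7 without moderation, 83 in the females alone and 44 to 193 with 1 array left out. Same-numbered animals deviated with correlations of -0.17, 0.090 and -0.10, and the other combinations ranged from -0.27 to 0.31. With 3 arrays per group these values cannot decide whether same-numbered animals were pairs. The main fit did not use the numbers as pairs. With the replicate block 2 of the 45 genes passed, *Dkkl1* and *Wnt5a*, while *Wnt4* did not (limma adjusted p = 0.102). Dim probe sets limit what can be said of the 8 genes not detected.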
